A study of Mus musculus with 6 samples.

Results

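The intercalated disc is the end-to-end contact between neighbouring muscle cells within the ventricles or within the atria. The genes described here encode 10 of its junction proteins. Dsp, Pkp2, Jup, Dsg2 and Dsc2 belong to the desmosome, and Cdh2 and Ctnna3 to the adherens junction. The others are the scaffold gene Tjp1 and the Xin repeat genes Xirp1 and Xirp2. The rule that selects the 10 uses their names and none of their values, but they were chosen with earlier results of these data known. All 10 were found by their Ensembl identifiers among the 16018 genes listed, and all 10 passed the filter on low values that 16016 genes passed.

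Whole hearts of 3 female KOb/c mice (labelled NBCe1-B/C KO) and 3 female WT mice were compared by RNAseq at 4 to 5 weeks of age, without any treatment. The KOb/c mouse lacks the B and C variants of the sodium bicarbonate cotransporter NBCe1, the product of Slc4a4, from birth and in every tissue, while the A variant remains encoded. Both genotypes were on a C57BL/6J background and came from crosses of heterozygous parents. Each library was made from RNA of a whole heart, so fewer cells of a type and less RNA per cell cannot be told apart in any value below, and the p-values measure the spread between 3 and 3 hearts.

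Values are normalized counts, that is, read counts scaled between libraries by size factors, and the libraries held between 41364857 and 49100802 reads on genes. The 3 KOb/c libraries (42619258 to 49100802 reads) were each deeper than the 3 WT libraries (41364857 to 42037397 reads). Slc4a4 did not follow the labels in all libraries. It was listed at 264.0, 944.8 and 268.7 normalized counts in KOb/c replicates 1 to 3 and at 675.1, 822.2 and 788.8 in WT replicates 1 to 3, so the library labelled KOb/c replicate 2 had the highest value of all 6. Any reads of the A variant would also count toward this gene. The paper, however, describes the A variant as specific to the kidney and only B as present in the heart. The cause of the high value was not tested. The log2 fold change of Slc4a4 (KOb/c minus WT on the scale of log2(normalized count + 1)) was -0.90 (SE 0.42, limma adjusted p = 0.239), and without the library labelled KOb/c replicate 2 it was -1.51 (SE 0.12, adjusted p = 0.0121). The comparisons between genotypes below are therefore given with and without that library.

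Heart muscle cells pull on each other through the disc, and the junctions there carry that load. In a desmosome, cadherins of the desmoglein and desmocollin families (Dsg2 and Dsc2 in heart muscle) span the gap between cells, plakoglobin (Jup) and plakophilin 2 (Pkp2) bind their tails, and desmoplakin (Dsp) ties this plaque to desmin filaments. In the adherens junction, N-cadherin (Cdh2) is tied through catenins, including αT-catenin (Ctnna3), to actin. In heart muscle desmosomal and adherens proteins are partly mixed in one structure, the area composita, and inherited loss of desmosomal proteins is a known cause of arrhythmogenic cardiomyopathy. ZO-1 (Tjp1) is a scaffold that sits beside connexin 43 gap junctions, and the Xin proteins (Xirp1 and Xirp2) bind actin and the catenins of the disc.

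Across the 10 genes the KOb/c hearts sat above the WT hearts, with the clearest separation in Dsp, Tjp1, Dsg2 and Cdh2 and the least in Pkp2 and Dsc2. In 7 of 10 genes (Dsp, Jup, Dsg2, Cdh2, Ctnna3, Tjp1 and Xirp1) all 3 KOb/c libraries were above all 3 WT libraries, a pattern that 15.6% of the genes tested had, and no member had the opposite pattern. The median log2 fold change of the 10 was 0.45, and over all genes tested it was -0.004. No member passed an adjusted p of 0.05 in limma, where 0% of all genes did, although 9 of 10 members had an unadjusted p under 0.05 and 13% of all genes had one with a higher KOb/c level. On the read counts recovered from the table, the Wald test of DESeq2 called 8 of the 10 higher in KOb/c (all but Pkp2 and Dsc2). The background was 8.22% of the 11979 genes with an adjusted p called higher. Shares called by DESeq2 here and below are of genes with an adjusted p. The quasi-likelihood test of edgeR called no gene at all after adjustment, and 8 members had an unadjusted p under 0.05, where 13.3% of all genes had one with a higher KOb/c level. Without the library labelled KOb/c replicate 2, the groups of 7 members did not overlap (20.7% of all genes) and the median was 0.48. DESeq2 then called 6 members (7.16% of genes with an adjusted p).

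**Figure D1:**
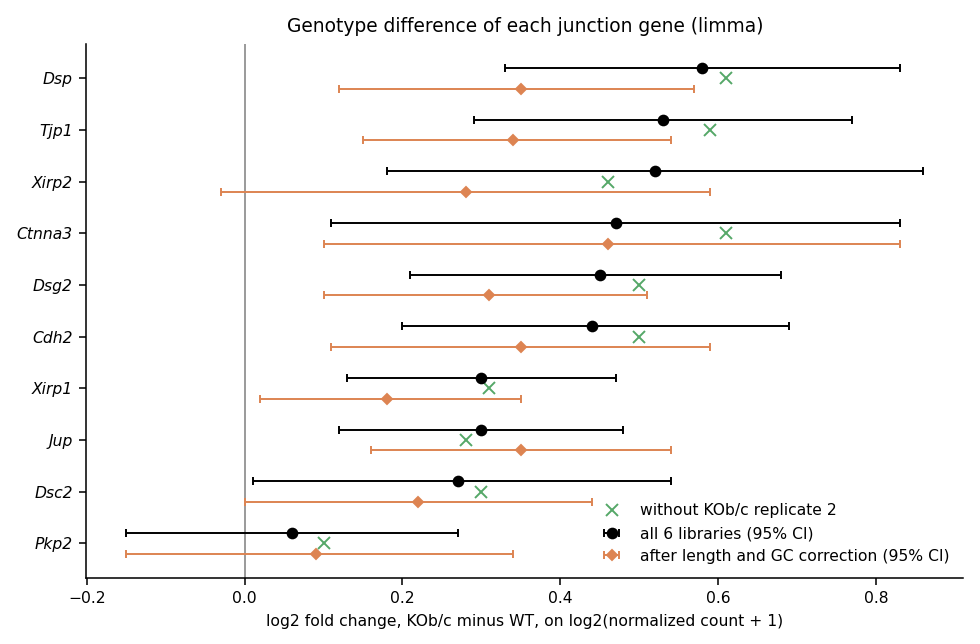
Log2 fold change of each junction gene, KOb/c minus WT, on the log2(normalized count + 1) scale, with its 95% interval from limma, for all libraries, after the length and GC correction, and without the library labelled KOb/c replicate 2. With all libraries the intervals of 9 genes lie above 0, and that of Pkp2 spans it.

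Levels can be set against each other between genes only per length, and were therefore divided by the length of the longest annotated transcript. In WT hearts Dsp had the highest level at 3531 ± 263 normalized counts per kb (SD, n = 3), followed by Jup at 3228 ± 244, and the ranges of these genes overlapped. Pkp2 stood at 2601 ± 135 per kb and Cdh2 at 2321 ± 75.6 per kb. The genes of the desmosomal plaque proteins and of N-cadherin were thus the upper 4 of the 10 on this scale of RNA. Xirp1 followed at 1604 ± 81.6 per kb, and Xirp2 at 844 ± 156 per kb overlapped with Dsg2 at 701 ± 65.6 per kb. Tjp1 at 513 ± 51 per kb overlapped with Dsc2 at 474 ± 81.1 per kb, and Ctnna3 was the lowest at 224 ± 10.5 per kb. The other neighbours in this order did not overlap in WT hearts. In KOb/c hearts Dsp stood at 5303 ± 749 per kb and no longer overlapped with Jup at 3967 ± 259.8 per kb, while Cdh2 at 3180 ± 529 per kb had a higher mean than Pkp2 at 2731 ± 343 per kb, with overlapping ranges. Without the library labelled KOb/c replicate 2 the KOb/c means were 5432 per kb for Dsp, 3929 for Jup, 3316 for Cdh2 and 2809 for Pkp2. The order and the distances between genes depend on the length used. With the length of all annotated exons joined, Dsp stood at 3506 per kb in WT hearts and Jup at 1607 per kb. On that length Xirp1 (1604 per kb in WT hearts) moved to rank 3, ahead of Pkp2 (1423 per kb) and Cdh2 (1394 per kb), and the other ranks stayed as they were. The overlap of Dsp with Jup in WT hearts, and its absence in KOb/c hearts, were read on the longest transcript only.

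**Figure D2:**
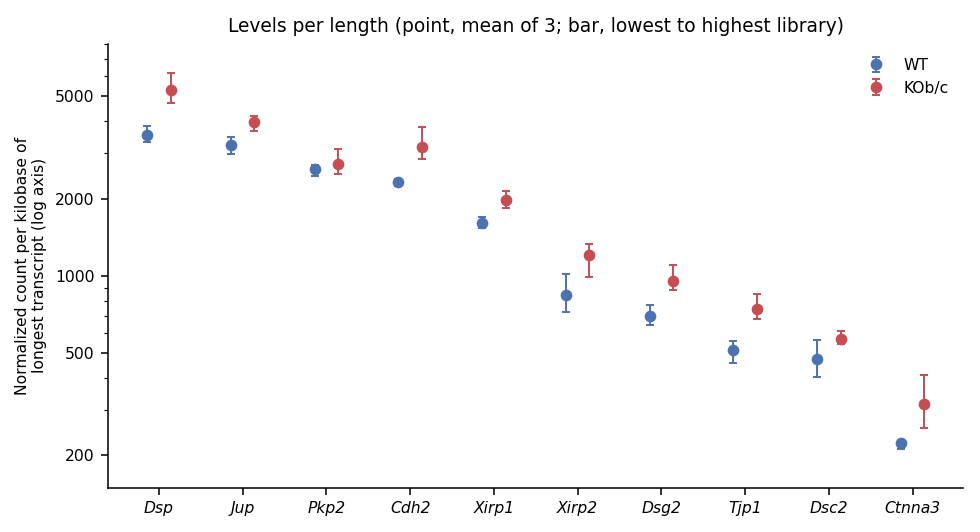
Normalized counts per kb of longest transcript (log axis) for the 10 junction genes in WT order, with a point at the mean of 3 libraries and a bar from the lowest to the highest library in each group. Dsp and Jup lie at the top, Ctnna3 lies at the bottom, and the KOb/c bar of Dsp lies apart from that of Jup.

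Dsp encodes desmoplakin, the plaque protein that binds intermediate filaments (ENSMUSG00000054889, GRCm38 chromosome 13, 38151294 to 38198577, plus strand). It was listed at 58961, 48406 and 45237 normalized counts in KOb/c replicates 1 to 3, and at 31880, 36708 and 33008 in WT replicates 1 to 3. Every KOb/c heart was above every WT heart, and replicate 1 was the highest KOb/c heart. The means were 50868 ± 7186 in KOb/c and 33865 ± 2526 in WT (SD, n = 3 each). The log2 fold change was 0.58 (SE 0.11, 95% interval 0.33 to 0.83), the largest of the 10, with an adjusted p of 0.0815 in limma and 3.08e-05 in DESeq2. It was 0.61 without the library labelled KOb/c replicate 2 (DESeq2 adjusted p = 0.000292).

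Jup encodes plakoglobin, which is shared by desmosomes and adherens junctions (ENSMUSG00000001552, chromosome 11, 100368958 to 100397763, minus strand). Its values were 13399, 12955 and 11787 in KOb/c hearts and 10410, 11093 and 9534 in WT hearts. The groups did not overlap, but the lowest KOb/c heart was close to the highest WT heart. Means of 12714 ± 833 and 10346 ± 781 gave a log2 fold change of 0.30 (SE 0.08, 0.12 to 0.48), with an adjusted p of 0.0901 in limma and 0.0117 in DESeq2. The log2 fold change was 0.28 without the library labelled KOb/c replicate 2, and the DESeq2 call was lost (adjusted p = 0.0575), as it was without KOb/c replicate 1, WT replicate 1 or WT replicate 3.

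Pkp2 encodes plakophilin 2, the armadillo protein that links the desmosomal cadherins to desmoplakin (ENSMUSG00000041957, chromosome 16, 16213318 to 16272712, plus strand). It was listed at 9156, 7545 and 7312 in KOb/c and at 7916, 7174 and 7785 in WT hearts. The groups overlapped, and apart from the high KOb/c replicate 1 the KOb/c values lay within the WT range. With means of 8005 ± 1004 and 7625 ± 396, the log2 fold change was 0.06 (SE 0.09, -0.15 to 0.27) and did not pass either test (limma adjusted p = 0.716, DESeq2 adjusted p = 0.698). The interval leaves room for a difference of up to 0.27 on the log2 scale. The sign of this value was not fixed: it was -0.01 after rescaling every library to the same total, -0.04 without KOb/c replicate 1, and 0.10 without the library labelled KOb/c replicate 2.

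Dsg2 encodes desmoglein 2 (ENSMUSG00000044393, chromosome 18, 20558074 to 20604521, plus strand). The KOb/c hearts held 6346, 5133 and 5097 normalized counts and the WT hearts 3710, 3955 and 4452. No KOb/c heart was as low as any WT heart. From means of 5525 ± 711 and 4039 ± 378, the log2 fold change was 0.45 (SE 0.10, 0.21 to 0.68), with an adjusted p of 0.0815 in limma and 0.00219 in DESeq2. It was 0.50 without the library labelled KOb/c replicate 2 (DESeq2 adjusted p = 0.00472).

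Dsc2, which encodes the partner cadherin desmocollin 2, lies 499 kb from Dsg2 on the same chromosome (ENSMUSG00000024331, 20030633 to 20059554, minus strand). Its KOb/c values were 2832, 2536 and 2524, and its WT values were 1874, 2098 and 2607. WT replicate 3 reached into the KOb/c range, while the other WT hearts were below it. Means of 2631 ± 175 and 2193 ± 376 gave a log2 fold change of 0.27 (SE 0.12, 0.01 to 0.54), which did not pass the adjusted threshold in limma (adjusted p = 0.2) or DESeq2 (adjusted p = 0.134). The value moved with single WT hearts, from 0.17 without WT replicate 1 to 0.41 without WT replicate 3, where DESeq2 called it. It was 0.30 without the library labelled KOb/c replicate 2 (DESeq2 adjusted p = 0.2).

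Cdh2 encodes N-cadherin, the classical cadherin of the adherens junction in heart muscle (ENSMUSG00000024304, chromosome 18, 16588877 to 16809246, minus strand). It was listed at 18354, 14076 and 13768 in KOb/c and at 10853, 11287 and 11581 in WT hearts. The WT hearts lay close together and all KOb/c hearts were above them, KOb/c replicate 1 by the most. The means of 15399 ± 2564 and 11240 ± 366 differed by 0.44 on the log2 scale (SE 0.11, 0.20 to 0.69), with an adjusted p of 0.0844 in limma and 0.00219 in DESeq2. The difference was 0.50 without the library labelled KOb/c replicate 2 (DESeq2 adjusted p = 0.00323).

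Ctnna3 encodes αT-catenin, which binds actin and also plakophilin 2 in the area composita (ENSMUSG00000060843, chromosome 10, 63430098 to 65003667, plus strand). Its values were 1520, 946.9 and 1041 in KOb/c hearts and 848.2, 780.7 and 847.6 in WT hearts. All KOb/c hearts were higher, but KOb/c replicate 1 stood well above the others. The log2 fold change from means of 1170 ± 308 and 825.5 ± 38.8 was 0.47 (SE 0.16, 0.11 to 0.83), with an adjusted p of 0.127 in limma and 0.0212 in DESeq2. Leaving out KOb/c replicate 1 lowered it to 0.27 and ended the DESeq2 call, which was also lost without WT replicate 1, WT replicate 2 or WT replicate 3, and leaving out the library labelled KOb/c replicate 2 raised it to 0.61 (DESeq2 adjusted p = 0.00703).

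Tjp1 encodes ZO-1 (ENSMUSG00000030516, chromosome 7, 65296165 to 65527781, minus strand). The KOb/c hearts were listed at 5994, 4784 and 4931 and the WT hearts at 3223, 3701 and 3928. The gap between the groups was wider than the spread of the WT hearts. With means of 5236 ± 660.4 and 3617 ± 359.8, its log2 fold change was 0.53 (SE 0.10, 0.29 to 0.77), second to Dsp among the 10, with an adjusted p of 0.0815 in limma and 0.000297 in DESeq2. Leaving out the library labelled KOb/c replicate 2 gave 0.59 (DESeq2 adjusted p = 0.000566).

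Xirp1, which encodes an actin-binding Xin protein of the disc, had values of 12498, 11389 and 10704 in KOb/c and 9270, 9885 and 8947 in WT hearts (ENSMUSG00000079243, chromosome 9, 120013755 to 120023598, minus strand). The groups did not overlap. Means of 11530 ± 905 and 9367 ± 476 gave a log2 fold change of 0.30 (SE 0.08, 0.13 to 0.47), with an adjusted p of 0.0861 in limma and 0.00859 in DESeq2. Without the library labelled KOb/c replicate 2 it was 0.31 (DESeq2 adjusted p = 0.0311), and the DESeq2 call was lost without WT replicate 1 or WT replicate 3.

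Xirp2 encodes the other Xin repeat protein and has the longest transcript of the 10, at 11979 nt (ENSMUSG00000027022, chromosome 2, 67446002 to 67526614, plus strand). Its values were 15893, 15696 and 11863 in KOb/c and 8690, 12228 and 9429 in WT hearts. KOb/c replicate 3 lay below WT replicate 2, so the groups overlapped although KOb/c replicates 1 and 2 were above all WT hearts. The log2 fold change from means of 14484 ± 2272 and 10116 ± 1866 was 0.52 (SE 0.15, 0.18 to 0.86), with an adjusted p of 0.0988 in limma and 0.00537 in DESeq2. Without the library labelled KOb/c replicate 2 it was 0.46 and the DESeq2 call was lost (adjusted p = 0.0572), as it was without KOb/c replicate 1, WT replicate 1 or WT replicate 3.

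**Figure D3:**
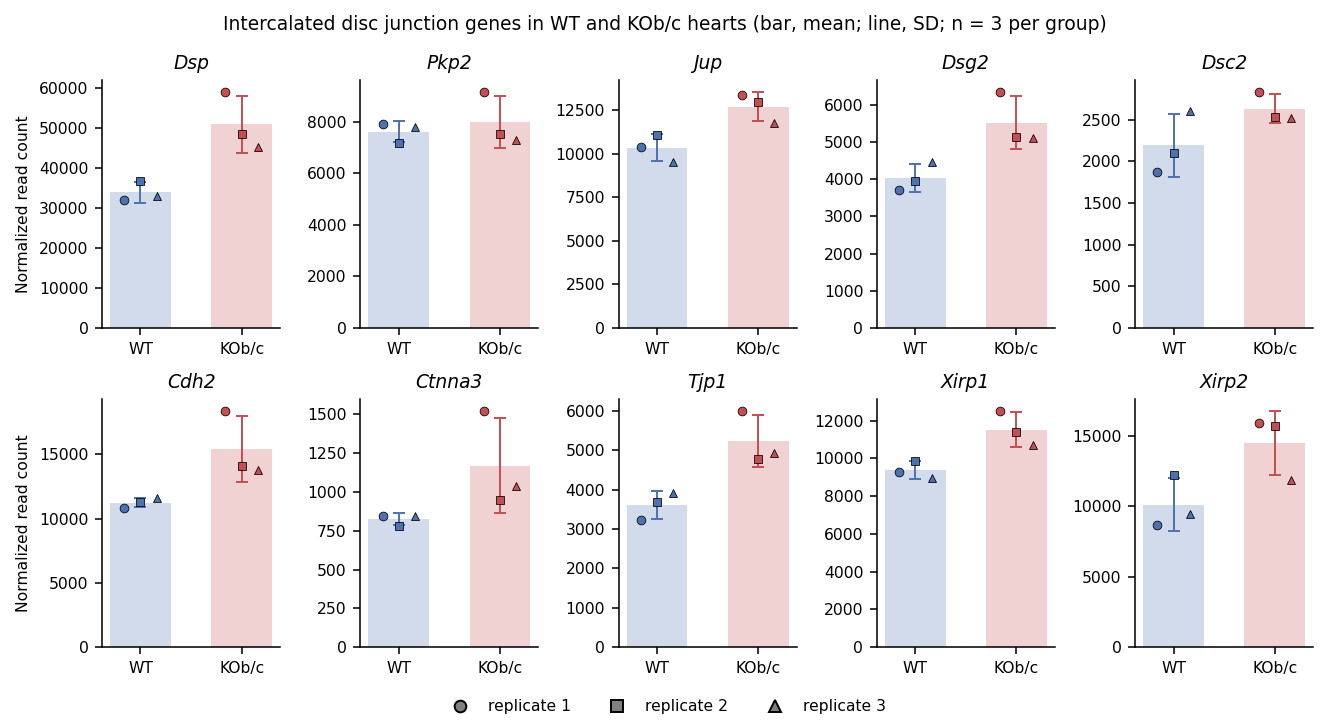
Normalized counts of the 10 junction genes, with 1 panel for each gene, a point for each of the 3 WT and 3 KOb/c libraries shaped by replicate number, a bar from 0 to each group mean and a line for its SD. KOb/c replicate 1 is the highest point in all 10 panels, and the groups overlap only in Pkp2, Dsc2 and Xirp2.

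The size of these differences rested in part on single hearts. KOb/c replicate 1 held the highest of the 6 values in 10 of 10 members, whereas it was the highest library for 28.2% of all genes. WT replicate 1 was the lowest library in 6 members (21.5% of all genes), and WT replicates 2 and 3 in 2 each (13.3% and 15.6%). Over all genes, KOb/c replicate 1 was also the lowest library for 25.5% and WT replicate 1 the highest for 23.1%. Taken as the deviation from the mean of the 6 libraries on the log2 scale, the median member stood at 0.42, 0.13 and 0.08 in KOb/c replicates 1 to 3 and at -0.31, -0.18 and -0.19 in WT replicates 1 to 3. All 3 KOb/c hearts were therefore above all 3 WT hearts on this summary, but KOb/c replicates 2 and 3 by much less than replicate 1. Without KOb/c replicate 1 the median log2 fold change of the members was 0.29. DESeq2 then called 5 members (5.27% of genes with an adjusted p called higher). Without WT replicate 1 it called 4 (3.16%), without WT replicate 3 it called 5 (5.66%), without WT replicate 2 it called 7 (6.51%), and without KOb/c replicate 3 it called 8 (7.8%). Dsp, Dsg2, Cdh2 and Tjp1 were the 4 members called whichever of the 6 libraries was left out.

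Transcript length moved with the comparison over all genes, and the junction genes are long. Spearman's rho between length and log2 fold change was 0.45 across all genes tested, which are not independent replicates. Transcripts of at least 5000 nt had a median log2 fold change of 0.18 (3345 genes) and those under 2000 nt a median of -0.16 (4056 genes). The median junction gene had 5304 nt and the median gene of all listed had 3188 nt. Among the 10 junction genes rho was 0.72, with Jup (3205 nt) and Pkp2 (2931 nt) at the short end and Dsp (9592 nt) and Xirp2 at the long end. RNA quality values of the hearts were not analysed here, and the values after a correction for length follow.

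After the trend with length and GC content was removed in every library, the fold changes of 8 of the 10 junction genes were smaller, and all 10 were above 0. The median log2 fold change was 0.32 (0.01 over all genes), with a range from 0.09 for Pkp2 to 0.46 for Ctnna3, and rho with length among the 10 was -0.04. A similar corrected median of 0.29 was found for the 9 cardiomyocyte markers described below. The corrected values were 0.35 for Dsp, 0.34 for Tjp1, 0.28 for Xirp2 and 0.18 for Xirp1, each smaller than before, whereas Jup, a shorter transcript, stood at 0.35. The groups of Dsp, Jup, Dsg2, Cdh2, Ctnna3, Tjp1 and Xirp1 did not overlap after this correction, 7 of 10 where 11.2% of all genes had the pattern. DESeq2 with the same correction called Dsp (adjusted p = 0.0182), Jup (adjusted p = 0.0138), Cdh2 (adjusted p = 0.0426) and Tjp1 (adjusted p = 0.0238), that is 4 of 10 where it called 1.25% of genes higher. It did not call Dsg2 (adjusted p = 0.0595), Ctnna3 (adjusted p = 0.0671), Xirp1 (adjusted p = 0.223), Xirp2 (adjusted p = 0.296), Dsc2 (adjusted p = 0.333) or Pkp2 (adjusted p = 0.74). In limma the adjusted p of the members after the correction ranged from 0.244 to 0.716. With the correction and without the library labelled KOb/c replicate 2, the log2 fold changes were 0.38 for Dsp, 0.14 for Pkp2, 0.35 for Jup and Dsg2, 0.24 for Dsc2, 0.41 for Cdh2, 0.60 for Ctnna3, 0.40 for Tjp1, 0.20 for Xirp1 and 0.21 for Xirp2.

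**Figure D4:**
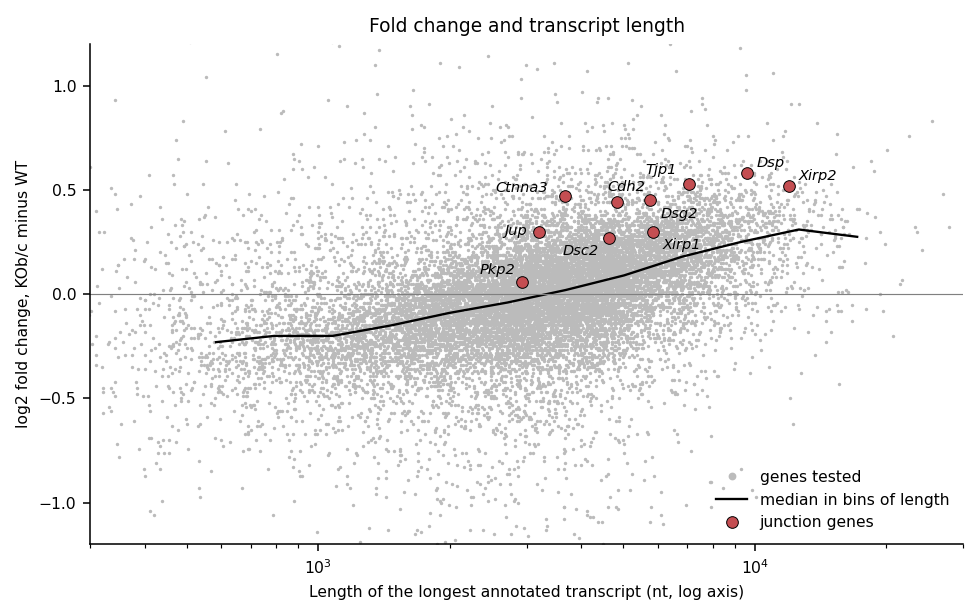
Log2 fold change, KOb/c minus WT, against the length of the longest transcript (log axis) for all genes with a known length, with the 10 junction genes marked by name and a black line for the median in bins of length. Of 15978 genes, 203 lie outside the axes. Longer transcripts have higher values in general, and 9 of the junction genes lie at 0.27 or above while Pkp2 lies at 0.06.

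The promoters of Dsp and Xirp2, the genes with the largest fold change and the longest transcript, are shown because the first held none of the motifs searched and the second held more of them than any other window of the 5 members looked up with an entry. Both are the 250 bases before the annotated start (RefSeq, GRCm38.p6, plus strand), at chr13:38151044-38151293 for Dsp and chr2:67445752-67446001 for Xirp2. Capitals mark the motifs searched on both strands: the E-box CANNTG, the M-CAT element CATTCC, the AP-1 site TGANTCA, and the MEF2 and CArG elements of muscle genes.
Dsp: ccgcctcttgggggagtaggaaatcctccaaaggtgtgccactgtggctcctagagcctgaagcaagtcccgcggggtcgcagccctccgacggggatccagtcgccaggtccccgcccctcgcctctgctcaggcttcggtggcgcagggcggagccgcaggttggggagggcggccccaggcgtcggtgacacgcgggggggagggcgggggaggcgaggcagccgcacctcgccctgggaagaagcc
Xirp2: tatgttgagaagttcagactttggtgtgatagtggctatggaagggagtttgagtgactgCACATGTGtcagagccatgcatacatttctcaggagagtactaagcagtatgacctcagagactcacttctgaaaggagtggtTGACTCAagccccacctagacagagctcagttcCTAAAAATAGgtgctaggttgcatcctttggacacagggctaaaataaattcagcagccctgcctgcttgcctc

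The Dsp window had a GC content of 72.4% and held none of the 5 motifs. The Xirp2 window had a GC content of 46.8% and held an overlapping pair of E-boxes that start 190 and 188 bases before the start site, an AP-1 site at 107 to 101 bases and a MEF2 element at 74 to 65 bases before it. The median GC content of all promoters was 52.4%. Of 32851 promoter windows of this length, 66.2% held an E-box, 12.6% an M-CAT element, 6.75% an AP-1 site, 2.92% a MEF2 element and 1.47% a CArG element. Among the 5 members looked up with an entry, the windows of Jup (62.0% GC) and Tjp1 (63.2% GC) held none of the motifs. No window was read for Pkp2, Dsg2, Dsc2, Cdh2 or Xirp1. Ctnna3 had 3 start sites, of which the first (67.6% GC) held none, the second (44.8% GC) held an M-CAT element and the third (45.6% GC) held a pair of E-boxes. A match of letters is a description of the sequence and not evidence of a bound factor.

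Ratios between the normalized RNA counts of partner genes show whether members moved by the same factor within each heart. The log2 ratio of Pkp2 to Dsp was -2.69, -2.68 and -2.63 in KOb/c and -2.01, -2.36 and -2.08 in WT hearts, with means of -2.67 ± 0.03 and -2.15 ± 0.18. Every KOb/c heart had less Pkp2 per Dsp than every WT heart, with a difference of -0.52. With 3 hearts per group the exact permutation test (two-sided) cannot give a p below 0.1, which is the value it gave here (0.2 after Benjamini-Hochberg adjustment over 6 ratios). The difference was -0.51 without the library labelled KOb/c replicate 2 and -0.25 after the length and GC correction, where the groups still did not overlap.

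The other ratios differed less. Jup to Dsp was lower in KOb/c by a log2 difference of -0.28 without overlap (exact permutation p = 0.1, adjusted p = 0.2), but this was 0.00 after the length and GC correction. Dsc2 to Dsg2, the pair of desmosomal cadherins, differed by -0.17 without overlap (exact permutation p = 0.1, adjusted p = 0.2) and by -0.09 with overlap after the correction. Within the adherens junction, Ctnna3 to Cdh2 differed by 0.03 with overlapping groups (exact permutation p = 0.8). The ratio of the scaffold gene Tjp1 to Cdh2 differed by 0.09, also with overlapping groups (exact permutation p = 0.4). Xirp2 to Xirp1 differed by 0.22 with overlapping groups (exact permutation p = 0.2). The differences were -0.33 for Jup to Dsp, -0.20 for Dsc2 to Dsg2, 0.11 for Ctnna3 to Cdh2, 0.09 for Tjp1 to Cdh2 and 0.15 for Xirp2 to Xirp1 without the library labelled KOb/c replicate 2.

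**Figure D5:**
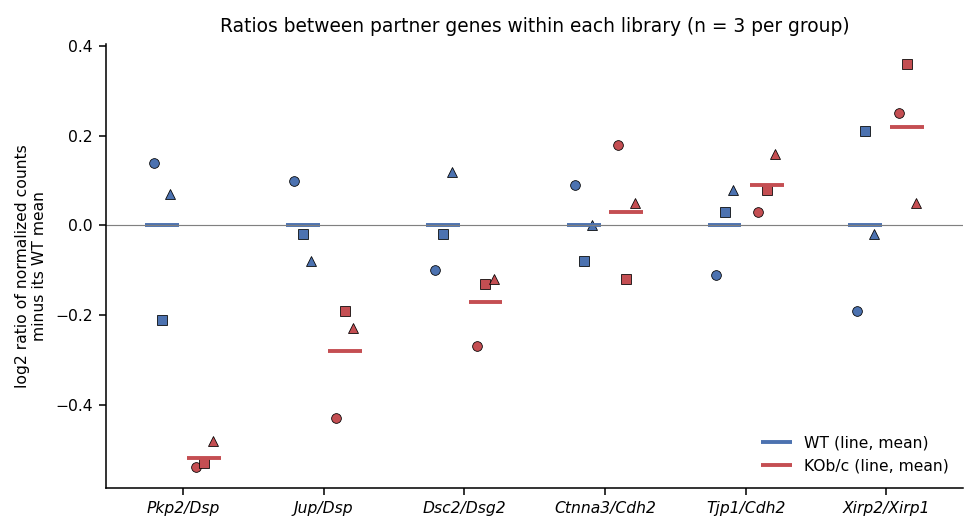
Log2 ratio of normalized counts minus its WT mean for 6 pairs of junction genes, with a point for each library (circle, square and triangle for replicates 1, 2 and 3) and a short line at each group mean. The 3 KOb/c points lie below the 3 WT points for Pkp2 to Dsp, Jup to Dsp and Dsc2 to Dsg2, and the groups overlap for the other pairs.

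Members also varied together from heart to heart, as a description over 6 libraries that share the same size factors and include the genotype difference. Pearson's r with Dsp on the log2 scale was 0.99 for Xirp1, 0.97 for Cdh2, 0.96 for Tjp1, 0.94 for Jup and Dsg2, 0.92 for Xirp2, 0.87 for Ctnna3, 0.72 for Dsc2 and 0.50 for Pkp2. Over the 5 libraries without the one labelled KOb/c replicate 2, r ranged from 0.59 for Pkp2 to 0.99 for Xirp1. After each group's mean was subtracted over 6 libraries, r was 0.94 for Xirp1 and 0.88 for Cdh2, and the lowest were 0.34 for Dsc2 and 0.62 for Pkp2. Of 11842 genes outside the lists averaging 100 or more normalized counts, the pattern over the 6 libraries most like the mean of the members was that of Dnajc16 (r = 0.9998), Msl2 (r = 0.9990) and Cbl (r = 0.9988). Their log2 fold changes were 0.37, 0.24 and 0.38, and their longest transcripts had 5969, 4889 and 11372 nt. No r with Dsp is given for other genes, or after the length and GC correction.

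The rest of the disc was read from a list of 25 other genes of junctions, gap junctions and disc scaffolds, all of which were in the table. Their median log2 fold change was 0.20, or 0.11 after the length and GC correction. In 12 of the 25 the KOb/c hearts were all above the WT hearts (15.6% of all genes), and in none were they all below. No gene passed in limma, and DESeq2 called 7 higher (8.22% of genes with an adjusted p) and 0 lower. Vcl, which encodes the actin linker vinculin, was listed at 4242, 3141 and 3240 in KOb/c and 2230, 2737 and 2465 in WT hearts (log2 fold change 0.51, DESeq2 adjusted p = 0.00237). Ank3, which encodes the membrane adaptor ankyrin-G, was listed at 3733, 2705 and 3067 and at 2079, 2102 and 2303 (0.54, DESeq2 adjusted p = 0.000464). These values were about as large as that of Dsp. Gja1, which encodes connexin 43, was listed at 20825, 20310 and 20132 in KOb/c and at 16829, 18090 and 17467 in WT hearts, a smaller difference of 0.23 with no overlap (DESeq2 adjusted p = 0.0127). Nrap (0.32, DESeq2 adjusted p = 0.0265) and Sorbs2 (0.34, DESeq2 adjusted p = 0.0153), which encode actin-associated scaffolds, Cxadr (0.29, DESeq2 adjusted p = 0.0403), which encodes the coxsackie and adenovirus receptor, and Des (0.24, DESeq2 adjusted p = 0.0379), which encodes the desmin that desmoplakin binds, were also called. Ctnnb1, which encodes the β-catenin that binds Cdh2 and was looked at for that reason after its value was known, had a log2 fold change of 0.02. After the length and GC correction DESeq2 called 2 of the 25, Vcl and Des, each with an adjusted p of 0.0457, where it called 1.25% of genes higher. Without the library labelled KOb/c replicate 2 the KOb/c hearts were all above the WT hearts in 13 genes (20.7% of all genes). DESeq2 then called 6 (7.16% of genes with an adjusted p), namely Ctnna1, Vcl, Gja1, Ank3, Tmem65 and Sorbs2.

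Genes linked to junction signalling were given by a list of 11, all in the table, with a median log2 fold change of 0.07. DESeq2 called Tead1, which encodes a factor that binds the M-CAT element, higher in KOb/c, at 7966, 7374 and 6415 against 4697, 5779 and 5330 normalized counts (log2 fold change 0.46, adjusted p = 0.00125, and adjusted p = 0.196 after the length and GC correction). Ankrd1, which encodes a stretch-responsive ankyrin repeat protein of the sarcomere and nucleus, had the lowest value of the list, at 13177, 17440 and 12770 in KOb/c and 14109, 24777 and 24414 in WT hearts. The groups overlapped, and its log2 fold change of -0.51 did not pass in limma (adjusted p = 0.193) or DESeq2 (adjusted p = 0.186). Tead1 stood at 0.45 (DESeq2 adjusted p = 0.0139) and Ankrd1 at -0.66 (DESeq2 adjusted p = 0.12) without the library labelled KOb/c replicate 2.

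The labelled tissue was checked by marker lists. All 9 cardiomyocyte markers were present, with a summed level of 2961420 to 3352119 normalized counts in KOb/c and 2606627 to 2714129 in WT hearts, a higher KOb/c sum without overlap. That separation rested on Myh6, the adult ventricular myosin heavy chain of the mouse: without it the other 8 summed to 1828587 to 2092889 in KOb/c and 1841609 to 1940677 in WT hearts, which overlapped. The log2 fold changes of single markers ran from -0.16 for Mb to 0.61 for Ryr2. DESeq2 called 4 of 9 higher (Myh6, Actn2, Ttn and Ryr2) where it called 8.22% of genes with an adjusted p. The same 4 were called without the library labelled KOb/c replicate 2 (7.16%). Of the others, Tnnt2 stood at -0.09 and Tnni3, lower in every KOb/c heart than in any WT heart, at -0.13, and neither these nor Mb passed in limma or DESeq2. After the length and GC correction DESeq2 called Myh6 and Actn2, but not Ryr2 (adjusted p = 0.0738) or Ttn (adjusted p = 0.115). Tnnt2 then stood at -0.08, Tnni3 at 0.06 and Mb at 0.01. The median log2 fold change of the 9 markers was 0.15, and 0.29 after the correction, where that of the junction genes was 0.32. The part of the cardiomyocyte sum in the junction gene values was not tested. Of the desmosomal and epithelial relatives that mark skin and gland cells, 4 of 12 were in the table, summing to 99.2 to 215.0 in KOb/c and 92.2 to 237.2 in WT hearts, and none passed in limma, while DESeq2 gave no adjusted p for them at these low counts. Dsg3, Dsc1, Dsc3, Pkp1, Pkp3, Cdh1, Krt5 and Epcam are not in the table, and the highest value of those listed was 107.2 normalized counts for Krt18, 103.4 for Krt8, 24.7 for Krt14 and 16.6 for Dsg1a. The junction genes of the desmosome were therefore measured in hearts where these epithelial markers were not listed or low. The endothelial sum was 41129 to 44898 in KOb/c and 40704 to 41615 in WT hearts, with Cdh5 at 0.25 (DESeq2 adjusted p = 0.0286) and Egfl7 at -0.44 (DESeq2 adjusted p = 0.000665, and 0.0457 after the length and GC correction), and 6 of 6 markers were listed. Leaving out the library labelled KOb/c replicate 2, DESeq2 called Egfl7 (adjusted p = 0.00126) and Cldn5 (adjusted p = 0.00799) lower and did not call Cdh5 (adjusted p = 0.0991). The fibroblast sum was 52054 to 60701 and 51070 to 54767, with Pdgfra at 0.49 (DESeq2 adjusted p = 0.00759) and Tcf21 at -0.25 (6 of 6). DESeq2 also called Col1a1 higher, at 0.30 (adjusted p = 0.0335), and without the library labelled KOb/c replicate 2 it called Pdgfra (adjusted p = 0.0421) and not Col1a1 (adjusted p = 0.106). The mesothelial sum was 1020 to 2036 and 996.8 to 2828, with Upk1b at 0.75 and Wt1 at -0.39 (5 of 5). The thymus and lymphocyte sum was 176.7 to 319.3 and 194.6 to 517.7, with Cd8a at 0.21 and Cd3g at -0.67 (6 of 8, without Cd3e and Rag1). The skeletal muscle sum was 102816 to 121127 and 105054 to 114388, with Acta1, which heart also expresses, at 0.71 and Myh1 at -1.06 (6 of 7, without Myh4). The median log2 fold changes without the library labelled KOb/c replicate 2 were 0.11 for the mesothelial, -0.23 for the lymphocyte and -1.08 for the skeletal muscle markers. Myh1, Myh2 and Tnnt3 were then lower in every KOb/c heart than in any WT heart. Their counts in KOb/c replicates 1 and 3 were low, at 1.0 and 3.5, 4.0 and 3.5, and 11.9 and 60.3. DESeq2 gave no adjusted p for them. Without that library 20.7% of all genes had the opposite pattern. The shares of all genes lower in every KOb/c heart, or called lower by DESeq2, were not counted here. The KOb/c and WT ranges of all of these sums other than the cardiomyocyte sum overlapped over 6 libraries.

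Reads on overlapping genes limit some of these values, since the strand setting of the counting is not given in the sources used here. Dsp shares exon positions with Gm10129 on the opposite strand, which was listed at 52.2 to 131.0 normalized counts, 0.192% of the Dsp mean. Dsg2 overlaps with Gm16090 and Xirp2 with Gm13601, both annotated as antisense and not in the table. No other member shares exon positions with another annotated gene.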

How the data were processed

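Total RNA was read as paired reads on an Illumina HiSeq. Per the labels, the submitters' processing notes name Trimmomatic 0.36, STAR 2.5.2b, featureCounts of Subread 1.5.2, DESeq2 and GRCm38. The deposited values are a normalized signal, read counts that the authors scaled by library size factors and not by length. Divided by the value of 1 read, 100.0% of values were whole within 0.01. No pair of libraries was a copy (0.89% to 1.4% identical read counts).

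Symbols, positions and lengths came from GENCODE M21, and 15980 identifiers matched. The genotype difference was fitted on log2(normalized count + 1) in limma 3.58.1 (R 4.3.3) with a variance trend, for the 16016 genes averaging 10 or more, and p-values (two-sided) were adjusted by Benjamini-Hochberg over all of them (threshold 0.05). DESeq2 1.42.0 and edgeR 4.0.16 on recovered reads, other pseudocounts, filters and scalings, a length and GC correction (splines of 5 degrees of freedom per library), a replicate block, and each library left out were alternatives. DESeq2 gave an adjusted p to 11979 genes with all libraries and to 14152 after the length and GC correction. Scripts were tested on simulated data. The genes named are the members, Slc4a4, called disc genes and Gja1, epithelial genes listed, the extremes of each marker list, and the 3 closest patterns. Other named genes were chosen after their values were seen. Members and lists were chosen with earlier results of these data known. Counting error was 0.484% of the count for Dsp and 3.16% for Ctnna3.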

Additional observations from a re-analysis of the deposited data

How the results depend on the processing

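Of 260 values of member genes under alternatives, 210 kept their direction and side of the threshold, 47 kept their direction and passed it, and 3 changed sign. Those 3 were of Pkp2: -0.01 after rescaling to the same total (which lowered the median of all genes to -0.08), and -0.04 without KOb/c replicate 1 in limma and in DESeq2 (up to 0.13 without KOb/c replicate 3). DESeq2 called 1587 genes and 8 members, and with the length and GC correction 345 genes and 4 members, where limma and edgeR called 0. With 1 library left out, limma called 0 to 3 genes and no member (2 genes without the library labelled KOb/c replicate 2 after the length and GC correction), and DESeq2 called 776 genes and 5 members without KOb/c replicate 1, 1195 and 6 without the library labelled KOb/c replicate 2, 1490 and 8 without KOb/c replicate 3, and, leaving out WT replicates 1 to 3 in turn, 427, 1419 and 1118 genes with 4, 7 and 5 members. The count of members without overlap stayed within 1.5 times of 7. The median of the members was 0.37 rescaled to the same total, 0.32 after the length and GC correction with or without the replicate block, and 0.33 in DESeq2 with it. It ranged from 0.29 to 0.51 in limma and to 0.52 in DESeq2 with 1 library left out, and was 0.35 without the library labelled KOb/c replicate 2 after the correction. The difference in the log2 ratio of Jup to Dsp was 0.00 and that of Tjp1 to Cdh2 -0.01 after the correction, and that of Ctnna3 to Cdh2 ran from -0.04 (without KOb/c replicate 1), through -0.01 without WT replicate 2, to 0.11. The cause of these changes was not tested.

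Deviations of same-numbered hearts correlated at 0.23, 0.07 and -0.03, and those of differently numbered hearts at -0.18 to 0.15. Such values from 3 hearts per group cannot decide whether the replicate numbers pair the hearts. With the replicate block limma called 0 genes, and the adjusted p of the members ranged from 0.105 to 0.631. With 3 hearts per group, the interval of Pkp2 includes 0, and differences inside it could not be told from 0.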
